A study of Mus musculus with 60 samples.

Results

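The 7 mouse genes Gm24245, Gm25732, Gm15564, Mir6236, Gm42870, Gm43197 and A130071D04Rik, all annotated as noncoding, were followed across whole-blood RNA-seq libraries. They are 7 of the 49315 genes in the count tables. They were chosen by their measured values: each had one of the largest shifts between a dose of BIO 300 and vehicle. Gm25732, Gm15564 and Mir6236 were chosen on 50 mg/kg against vehicle on Day 0, and Gm24245, Gm42870, Gm43197 and A130071D04Rik on 100 and 200 mg/kg against vehicle on Day 1. In those comparisons the values are given as a description with no test, because the choice used them. All 7 were chosen for large dose shifts, so tests of them at other doses and days may not be free of the choice.

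BIO 300 is a formulation of genistein, a soy isoflavone, that has been developed as a countermeasure to ionizing radiation. The 60 libraries came from 60 male CD2F1 mice, aged 5 to 6 weeks at purchase, in 10 groups of 6. All groups share the strain and sex. Mice were dosed orally, every 12 h for 6 days, with vehicle (water with methylcellulose and polyvinylpyrrolidone) or with BIO 300 at 50, 100 or 200 mg/kg. Blood was taken on Day 0 (24 h after the course of 12 doses ended) or on Day 1 (48 h after it ended), with the RNA of each mouse in a library of its own. Day 0 and Day 1 each held 4 unirradiated groups (vehicle, 50, 100 and 200 mg/kg). Another 2 groups, given vehicle or 200 mg/kg, received 9.2 Gy of total body irradiation (TBI) from cobalt-60 and were sampled on Day 1, 24 h after it. Within the groups, mice are named by their animal numbers from 1 to 60.

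Noncoding gene models are a mixed class. Some encode regulatory RNAs, such as microRNAs, which are cut from a hairpin precursor and pair with messenger RNAs through a short seed. Others were annotated from sequence likeness alone, or from clones still awaiting experimental proof (the biotype TEC), and these often lie inside introns of longer genes, so that reads from unspliced precursor RNA can be counted on them. Ribosomal RNA makes up most of the RNA of a cell, and stretches that resemble it are scattered over the mouse genome. A fragment of ribosomal RNA that escapes depletion can therefore be counted on a short gene model elsewhere. Mature microRNAs are shorter than the fragments of a standard RNA-seq library, so reads on a microRNA gene here measure longer RNA over that locus.

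The sequences of Gm25732 and Gm24245 are shown first, because they show what the reads on these genes can look like. All positions are on GRCm38, and gene models are those of GENCODE release M21. Gm25732 (ENSMUSG00000092909) and Gm24245 (ENSMUSG00000087943) both carry the microRNA biotype and lie on the plus strand of chromosome 4, at chr4:139338206-139338265 and chr4:139338304-139338360, 38 bases apart. Neither overlaps another gene. Both sequences are known to resemble large-subunit ribosomal RNA. That likeness is background and was not computed here. Gm24187, on the minus strand at chr13:9834469-9834525, is printed below Gm24245 because it differs from it by 1 substitution, G11A (counted from 1 at the 5′ end, with the base of Gm24245 first), shown in capitals.
Gm25732: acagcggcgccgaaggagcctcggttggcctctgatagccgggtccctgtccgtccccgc
Gm24245: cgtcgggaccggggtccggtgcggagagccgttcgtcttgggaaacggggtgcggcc
Gm24187: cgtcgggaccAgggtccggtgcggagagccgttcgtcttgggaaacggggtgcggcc

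The 57 bases of Gm24245 are identical to those of Gm23935 on chromosome 16 and Gm24270 on chromosome 9. In all, 4 genes shared at least 25 bases in a row with it, so its counts depend on how reads matching several copies were treated and are uncertain. No other annotated transcript shared 25 bases in a row with Gm25732 on the same strand. The guanine and cytosine content of the transcript was 73.7% in Gm24245 and 71.7% in Gm25732, against a median of 47.2% over the counted genes found in the annotation.

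Mir6236 (ENSMUSG00000098973) is an annotated microRNA gene on the plus strand of chromosome 9 and overlaps no other gene. Whether it, too, resembles ribosomal RNA was not computed here.

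Gm15564 (ENSMUSG00000086324) is an antisense noncoding gene on the minus strand at chr16:35966752-35983230, with 821 exonic bases in 5 merged exons. Its span runs opposite to parts of Parp9 and Kpna1, but none of its exonic bases falls in an exon of either. It shares 52 bases in a row with Lars2, which encodes the mitochondrial leucyl-tRNA synthetase and lies on chromosome 9. The exon that holds 51 of them is printed because reads on it cannot be told from reads on Lars2 by those bases, which are in capitals (minus strand of chr16:35981725-35981795). This stretch, too, is known to resemble large-subunit ribosomal RNA.
Gm15564: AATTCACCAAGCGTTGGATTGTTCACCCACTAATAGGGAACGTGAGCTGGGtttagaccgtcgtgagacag

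The other 3 members are TEC genes, each of a single long exon inside the span of another gene. A130071D04Rik (ENSMUSG00000104291, minus strand, chr1:138161820-138167683, 5864 bases) lies in an intron of Ptprc on the same strand. Ptprc encodes CD45, the receptor phosphatase carried by all white blood cells. Gm43197 (ENSMUSG00000107215, minus strand, chr6:3336772-3339354, 2583 bases) lies in an intron of the noncoding gene Gm20559, also on the same strand. Gm42870 (ENSMUSG00000105128, plus strand, chr16:19231333-19234802, 3470 bases) lies opposite an intron of the noncoding gene Gm43388. It stands in the immunoglobulin lambda light chain locus, 6404 bases from the variable segment Iglv3 and 30981 bases from the constant segment Iglc2. None of the exonic bases of the 3 genes falls in an exon of these neighbours. The strand setting of the counting is not given in the sources used here, so reads from Gm42870 and Gm43388 may not be separable.

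Levels are given in counts per 1000000 counts (CPM), scaled by the trimmed mean of M values (TMM) over all 60 mice. A gene was called changed where the log2 fold change exceeded 1 in either direction and edgeR's quasi-likelihood test, Benjamini-Hochberg adjusted, gave p under 0.05. On Day 0 the 4 short or antisense genes were low at 50 mg/kg. Gm25732 ranged from 1.51 to 5.56 (median 2.91) CPM at 50 mg/kg and from 12.2 to 29.1 (median 20.2) in vehicle mice. Gm15564 ranged from 10.1 to 37.7 (median 17.2) CPM at 50 mg/kg and from 62.1 to 162 (median 106) in vehicle mice. Every mouse given 50 mg/kg lay below every vehicle mouse for both genes.

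Mir6236 ranged from 111 to 328 (median 169) CPM at 50 mg/kg and from 497 to 1211 (median 911) in vehicle mice. Its log2 fold change was -2.26, after -2.63 for Gm25732 and -2.46 for Gm15564. These 3 held ranks 1 to 3 by size of change among 367 called genes that had a mean of at least 10 CPM in 1 of the groups and no overlap between them. Lars2 followed at rank 4 (-2.19). Called genes without overlap but under that level did not enter the ranking, among them Vldlr (-2.88, with a mean of 1.04 CPM in its higher group).

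Gm24245 was not chosen on that comparison, and ranged from 0.393 to 2.45 (median 0.643) CPM at 50 mg/kg on Day 0 against 2.5 to 5.69 (median 4.01) in vehicle mice. The groups stayed apart, with mouse 2 the highest of the treated mice. It fell by 2.11 on the log2 scale (SE 0.44, adjusted p = 0.0072). It was the only one called of the 4 members that could be tested here, where 4.50% of all tested genes were called. The other 3 tested members were the TEC genes, at 0.35 ± 0.14 (log2 fold change ± SE) for Gm42870, 0.36 ± 0.12 for Gm43197 and 0.17 ± 0.11 for A130071D04Rik, with adjusted p from 0.0539 to 0.289. Scaling by total counts instead raised Gm43197 past the limit, to 1.01.

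At the higher doses the Day 0 values of all 7 members overlapped those of vehicle mice. At 100 mg/kg, Mir6236 ranged from 290.5 to 1168 (median 608) CPM and Gm25732 from 5.16 to 24.3 (median 12.4). For 200 mg/kg the ranges were 835 to 1438 (median 1094) for Mir6236 and 19.1 to 36.1 (median 23.5) for Gm25732. Median levels thus stood in the order 50, 100 and 200 mg/kg for each of the 4 genes, and the ranges of neighbouring doses overlapped. None of the 7 members was called by edgeR or DESeq2 at either dose, and edgeR called 0% of all genes at each. No member had an unadjusted p under 0.05 at either dose, while 726 genes had at 100 mg/kg and 2145 at 200 mg/kg.

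**Figure D1:**
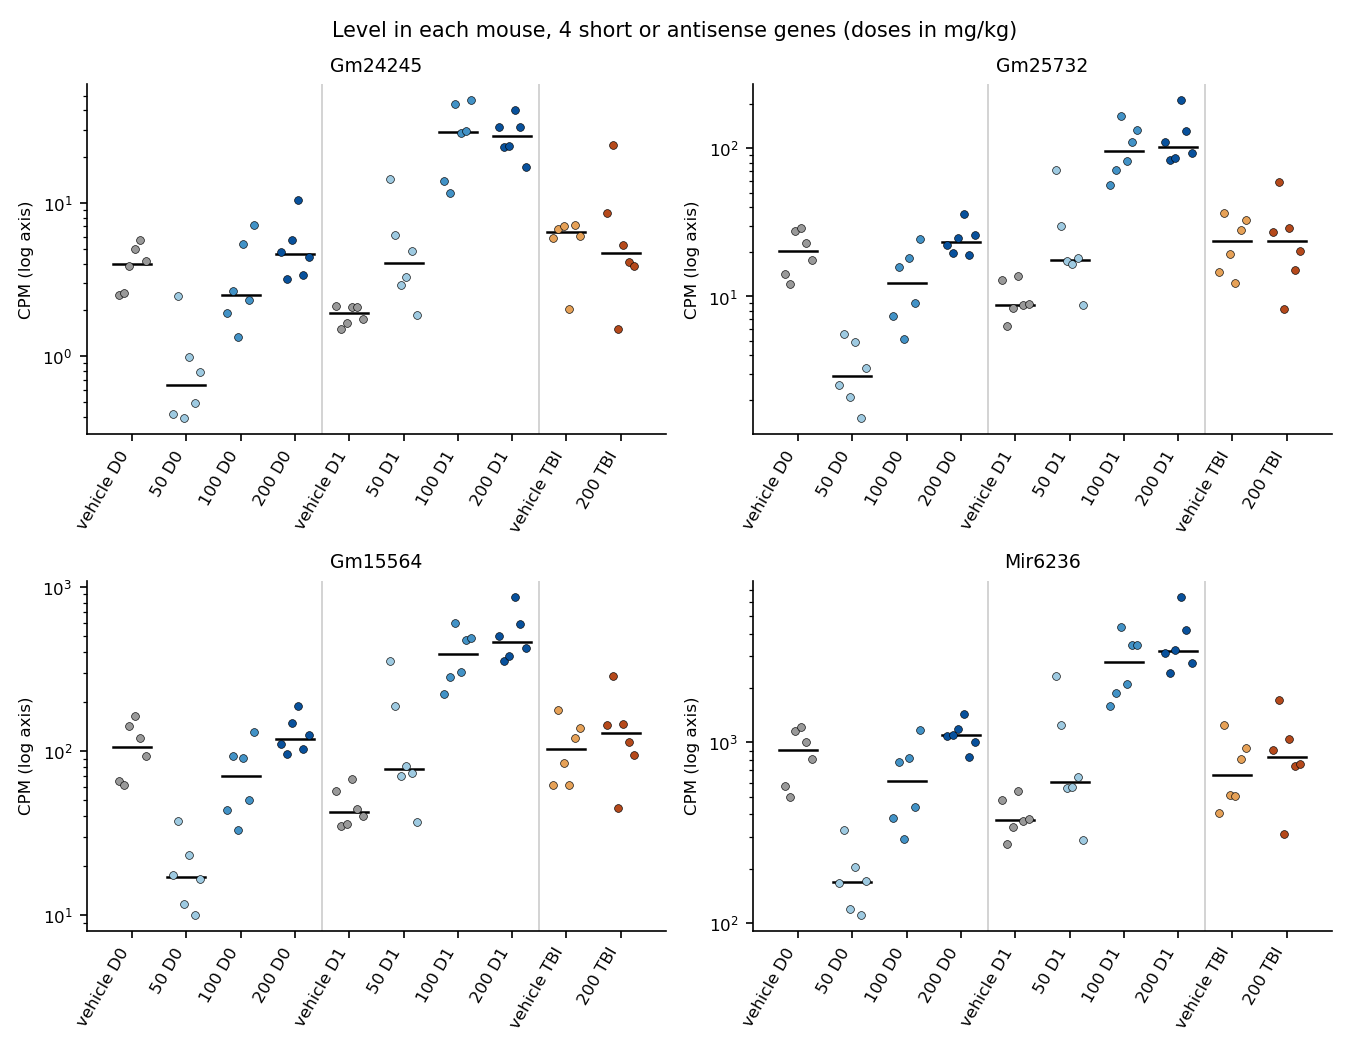
Level of Gm24245, Gm25732, Gm15564 and Mir6236 in each of the 60 mice (CPM, log axis), with 6 points per group and a line at the group median. D0 and D1 are Day 0 and Day 1, numbers are doses in mg/kg, and the last 2 groups were irradiated. Values are lowest at 50 mg/kg on Day 0 (Mir6236 111 to 328 CPM) and highest at 100 and 200 mg/kg on Day 1 (Mir6236 1583 to 4333 and 2436 to 6394).

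On Day 1 the 4 genes were high, not low, and at 100 and 200 mg/kg. Mir6236 ranged from 273 to 541 (median 373) CPM in vehicle mice, from 1583 to 4333 (median 2778) at 100 mg/kg and from 2436 to 6394 (median 3191) at 200 mg/kg. Gm15564 ranged from 35.2 to 67.2 (median 42.3) CPM in vehicle mice, from 223 to 603 (median 387) at 100 mg/kg and from 354 to 866 (median 459.5) at 200 mg/kg. Gm25732 ranged from 6.29 to 13.7 (median 8.83), from 56.5 to 164 (median 96.0) and from 82.8 to 210.3 (median 102) CPM in the same order. For each gene all 12 mice given 100 or 200 mg/kg lay above all 6 vehicle mice, and the 2 doses overlapped.

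These 3 genes were not chosen on Day 1, and all 3 of 3 were called at 100 mg/kg, where 48.8% of all genes were called. At 100 mg/kg Gm25732 rose by 3.44 ± 0.27 (adjusted p = 1.17e-07), Gm15564 by 3.13 ± 0.26 (adjusted p = 1.62e-07) and Mir6236 by 2.87 ± 0.28 (adjusted p = 7.17e-07) on the log2 scale. At 200 mg/kg all 3 of 3 were again called, against 47.8% of all genes. Gm25732 rose by 3.67 ± 0.27 (adjusted p = 4.02e-08), a fold of 12.7. Gm15564 rose by 3.55 ± 0.25 (adjusted p = 3.54e-08) and Mir6236 by 3.29 ± 0.27 (adjusted p = 1.36e-07), folds of 11.7 and 9.80. Under total counts all 3 were called at both doses with smaller changes, of 1.99, 1.68 and 1.43 for Gm25732, Gm15564 and Mir6236 with 100 mg/kg and of 2.16, 2.03 and 1.77 with 200 mg/kg. The 2 doses share their vehicle mice, so they are not separate evidence. In the ranking described for Day 0, Gm25732, Gm15564 and Mir6236 stood at ranks 18, 54 and 185 of 3244 with 100 mg/kg. With 200 mg/kg they stood at ranks 4, 9 and 36 of 3279, above Gm43197 at rank 127, which was chosen there. Their tests on Day 1 may therefore not be free of the choice.

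Gm24245 was chosen on Day 1 and its values there are a description. It ranged from 1.5 to 2.12 (median 1.91) CPM in vehicle mice, from 11.5 to 46.5 (median 28.8) at 100 mg/kg and from 17.0 to 40.0 (median 27.2) at 200 mg/kg. Its log2 fold changes of 4.00 and 3.96 stood at rank 3 of 3244 and rank 1 of 3279 in the ranking described for Day 0, and its counts over the 60 mice ran from 20 to 768 reads.

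At 50 mg/kg on Day 1 the 4 genes spread widely. Mir6236 ranged from 289 to 2338 (median 605) CPM, and Gm25732 from 8.79 to 71.2 (median 17.7). Mouse 31 was the highest for all 4 genes, and the group overlapped vehicle mice. Log2 fold changes were 1.58 ± 0.39 for Gm24245, 1.47 ± 0.40 for Gm25732, 1.53 ± 0.44 for Gm15564 and 1.26 ± 0.40 for Mir6236. None of the 7 members passed the test (adjusted p from 0.0837 to 0.151), all 7 had an unadjusted p under 0.05, and 0% of all genes were called, with 4458 at an unadjusted p under 0.05. DESeq2 called 3 of the 7, namely Gm24245, Gm25732 and Gm15564, and edgeR called the same 3 when mouse 36, the lowest of the group for all 4 short or antisense genes, was left out. Without mouse 31 none was called, and the change in Mir6236 was 0.76.

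With TMM scaling, markers of platelets and red cells moved with the 4 genes on Day 1. The summed level of 8 platelet markers (Ppbp, Pf4 and 6 others, all detected) ranged from 1869 to 3752 CPM in vehicle mice, and was 14179.5 to 30884 with 100 mg/kg and 13592 to 23663 with 200 mg/kg. The sum of 8 erythroid markers, globins among them, ranged from 82186 to 127382, 326359 to 601749 and 291004 to 641517 CPM in the same groups. At 50 mg/kg on Day 0 the platelet sum was 1039.6 to 2522 CPM, against 2183 to 4490.5 in vehicle mice. The part of these cells in the change was not tested. In whole blood, more cells of a type and more RNA per cell cannot be told apart. In the irradiated vehicle mice the platelet sum was 3604 to 25819.6 CPM, overlapping the sums at 100 and 200 mg/kg. Mir6236 was 408 to 1248 CPM in these mice, below its values at both doses. The erythroid sum of these mice is not given. How either sum relates to Mir6236 was not tested. The sums use TMM scaling and are not given under total counts. Median TMM factors on Day 0 were 1.90 at 50 mg/kg and 1.13 in vehicle mice. On Day 1 they were 0.56 at 100 mg/kg, 0.54 at 200 mg/kg and 1.45 in vehicle mice. A lower factor raises CPM, so the size of these shifts depends on the scaling.

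After irradiation, whether Gm24245, Gm25732 and Gm15564 passed the test depended on the control group. In irradiated vehicle mice Gm24245 ranged from 2.04 to 7.16 (median 6.39) CPM, Gm25732 from 12.4 to 36.6 (median 23.6) and Gm15564 from 61.9 to 178 (median 103). All 3 ranges overlapped those of unirradiated vehicle mice on Day 1. Gm24245 rose by 1.61 ± 0.27 on the log2 scale (adjusted p = 4.03e-04), Gm25732 by 1.25 ± 0.29 (adjusted p = 0.0038) and Gm15564 by 1.17 ± 0.28 (adjusted p = 0.0044). The unirradiated mice here entered the choice of Gm24245, so its call rests partly on the choice. Mir6236 had a change of 0.86 ± 0.29 (adjusted p = 0.0261), under the limit on size. With Gm42870 these made 4 of 7 members called, against 36.0% of all genes. Scaling by total counts left 2 of 7, since Gm25732 (0.78) and Gm15564 (0.68) then fell short of the limit, and Gm15564 also did so without mouse 50 (0.98).

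Against vehicle mice of Day 0 none of the 4 was called after irradiation. The log2 fold changes were 0.63 ± 0.30 for Gm24245, 0.31 ± 0.32 for Gm25732, 0.10 ± 0.33 for Gm15564 and -0.15 ± 0.34 for Mir6236, with adjusted p from 0.121 to 0.837. In this comparison 1 of 7 members, Gm42870, was called, against 26.9% of all genes. Between the 2 unirradiated vehicle groups, Day 1 against Day 0, the 4 genes had log2 fold changes of -1.09 ± 0.21, -1.07 ± 0.24, -1.21 ± 0.25 and -1.15 ± 0.24, in the order Gm24245, Gm25732, Gm15564 and Mir6236. None of the 7 members passed edgeR's test there (adjusted p = 0.204 for all 4), 4 had an unadjusted p under 0.05, and DESeq2 called these 4. By edgeR 0% of all genes were called, with 3007 at an unadjusted p under 0.05. The 3 comparisons share mice with each other, and vehicle mice of Day 0 or Day 1 also entered the choice of every member.

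In irradiated mice no difference between 200 mg/kg and vehicle was detected. In irradiated mice given 200 mg/kg, Mir6236 ranged from 313 to 1708 (median 831) CPM, Gm15564 from 45.0 to 286 (median 128) and Gm25732 from 8.20 to 59.0 (median 23.7). All overlapped the irradiated vehicle mice, and mouse 56 was the highest for each. None of the 7 members was called by edgeR or DESeq2 for 200 mg/kg against vehicle in irradiated mice, none had an unadjusted p under 0.05 (688 genes did), and 0% of all genes were called. Log2 fold changes were 0.36 ± 0.56 for Gm24245, 0.09 ± 0.43 for Gm25732, 0.30 ± 0.40 for Gm15564 and 0.25 ± 0.38 for Mir6236 (adjusted p = 0.9999 for each), and without mouse 56 all 4 turned negative.

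Among mice given 200 mg/kg and sampled on Day 1, irradiated mice had lower levels of the 4 genes than unirradiated ones. Gm25732 fell by 2.23 on the log2 scale (SE 0.42, adjusted p = 0.0018), Mir6236 by 2.08 (SE 0.39, adjusted p = 0.0018) and Gm15564 by 1.97 (SE 0.39, adjusted p = 0.0023), with no overlap for these 3. Gm24245 fell by 1.86 (SE 0.54, adjusted p = 0.021), and its ranges overlapped. Under total counts its change was -1.05 and was not called. In this comparison 6 of 7 members were called, against 20.6% of all genes. The unirradiated 200 mg/kg mice also entered the choice of Gm24245 and of the 3 TEC genes, so the calls of Gm24245, Gm43197 and A130071D04Rik rest partly on the choice. Whether the dose effect differs with irradiation was not tested.

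**Figure D2:**
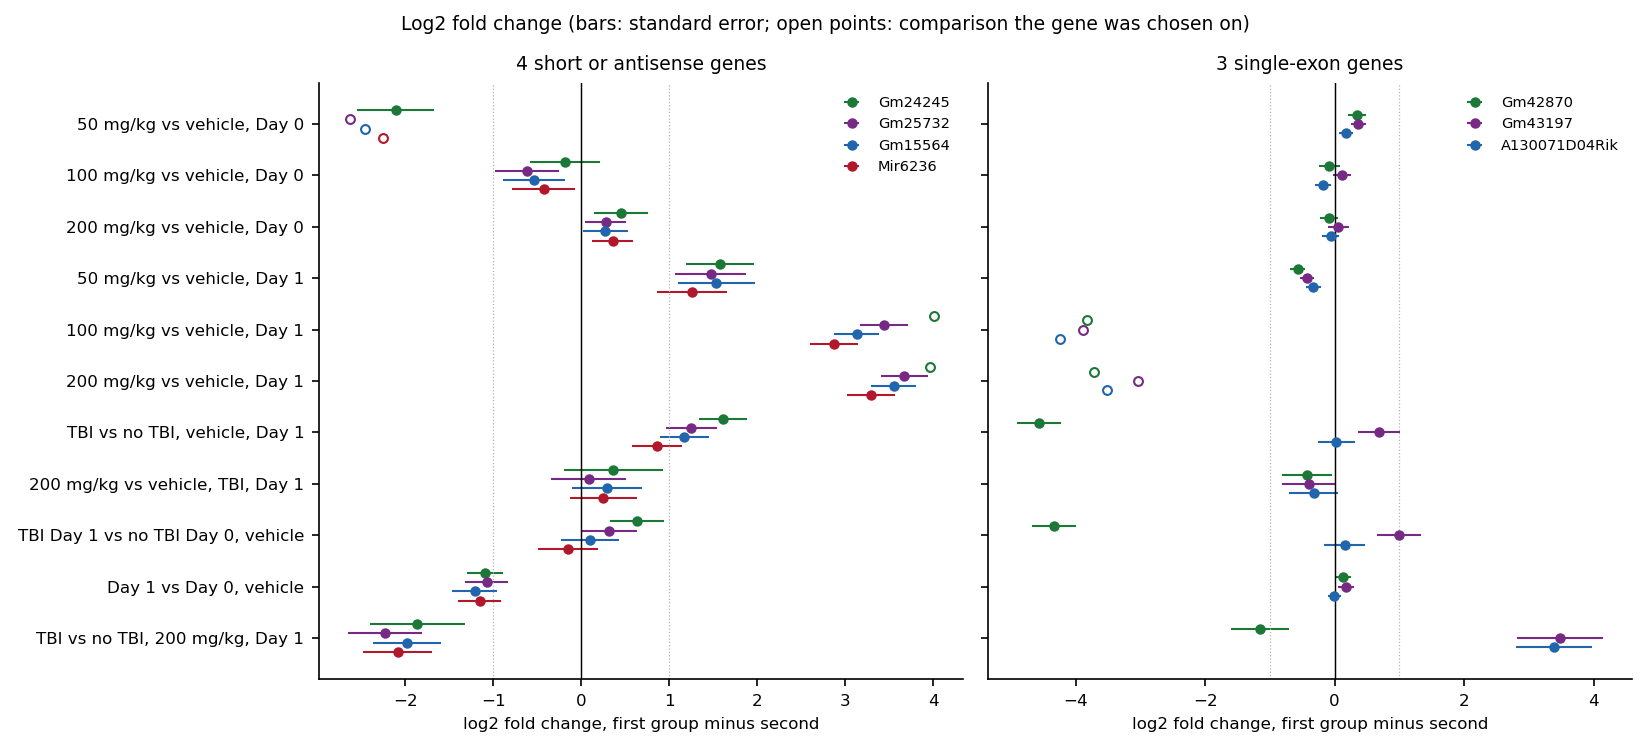
Log2 fold change of each member in each comparison, first group minus second, with standard errors. Open points mark the comparisons that a gene was chosen on, which have no error or test, and dotted lines mark the size limit for a call. At left the 4 short or antisense genes lie below 0 at 50 mg/kg on Day 0 and above 2.8 at 100 and 200 mg/kg on Day 1. At right Gm42870 stands apart from Gm43197 and A130071D04Rik after irradiation.

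The 3 TEC genes ran the other way on Day 1. Gm42870 ranged from 30.1 to 44.8 (median 35.8) CPM in vehicle mice, from 0.944 to 3.78 (median 2.47) at 100 mg/kg and from 0.650 to 5.18 (median 2.12) at 200 mg/kg. Gm43197 ranged from 15.5 to 25.7 (median 20.7), from 0.630 to 2.21 (median 1.13) and from 0.325 to 7.23 (median 1.07) CPM in the same groups. A130071D04Rik ranged from 25.8 to 32.3 (median 30.9), from 0.633 to 2.77 (median 1.14) and from 0.682 to 6.42 (median 1.17) CPM. No treated mouse reached a vehicle mouse for any of the 3. They were chosen on these values, so no test is given.

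At 100 mg/kg the log2 fold changes were -4.24 for A130071D04Rik, -3.89 for Gm43197 and -3.82 for Gm42870, at ranks 1, 4 and 7 of 3244. Vasn, at rank 2, had -4.07, and 6720427I07Rik, the next after Gm42870, had -3.76. With 200 mg/kg they were -3.71 for Gm42870, -3.51 for A130071D04Rik and -3.03 for Gm43197, at ranks 2, 13 and 127 of 3279. Mouse 43 was the highest of the 200 mg/kg mice for Gm43197 and A130071D04Rik. Without it the change in Gm43197 was -3.92.

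On Day 0 the 3 genes stayed near vehicle at 100 and 200 mg/kg, with log2 fold changes between -0.19 and 0.12. At 50 mg/kg on Day 1 they were lower than in vehicle mice by less than the limit on size. Gm42870 ranged from 19.1 to 30.9 (median 23.2) CPM, with a log2 fold change of -0.57 ± 0.12 (adjusted p = 0.0837). Gm43197 had -0.42 ± 0.11 and A130071D04Rik -0.33 ± 0.11. Gm42870 thus had a median of 23.2 CPM at 50 mg/kg against 2.47 at 100 mg/kg. The medians were 15.5 against 1.13 CPM for Gm43197 and 24.5 against 1.14 CPM for A130071D04Rik. These doses did not overlap for any of the 3 genes.

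**Figure D3:**
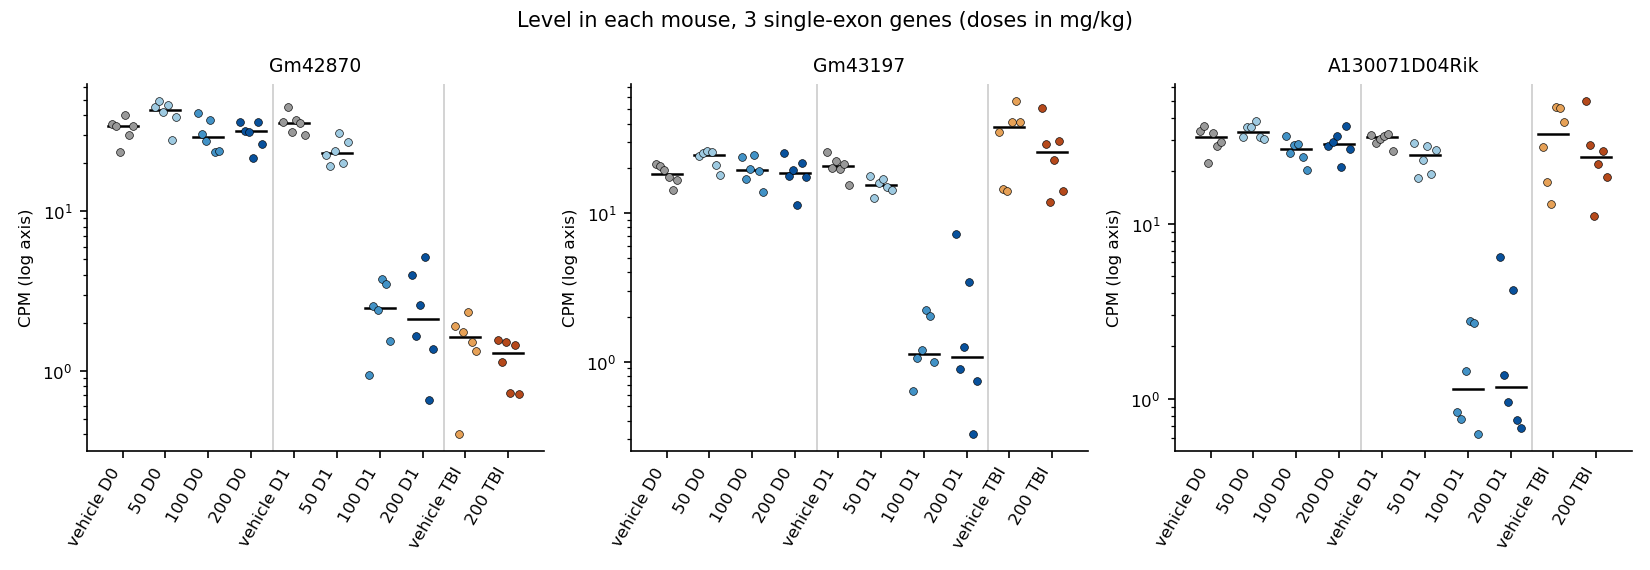
Level of Gm42870, Gm43197 and A130071D04Rik in each of the 60 mice (CPM, log axis), with 6 points per group and a line at the group median. All 3 are at or below 7.23 CPM in every mouse given 100 or 200 mg/kg on Day 1, and only Gm42870 is as low in irradiated mice (0.401 to 2.32 CPM with vehicle).

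Irradiation separated Gm42870 from the other 2. In irradiated vehicle mice Gm42870 ranged from 0.401 to 2.32 (median 1.63) CPM, below every unirradiated vehicle mouse. It fell by 4.56 on the log2 scale (SE 0.34, adjusted p = 2.69e-06), a fold of 23.6, and by 4.33 (SE 0.34, adjusted p = 9.19e-06) against vehicle mice of Day 0. Vehicle mice of Day 1 entered the choice of Gm42870, so its call against them rests partly on the choice. Gm43197 ranged from 14.1 to 56.7 (median 38.2) CPM and A130071D04Rik from 13.0 to 45.8 (median 32.5), both overlapping unirradiated vehicle mice. Their log2 fold changes were 0.68 ± 0.32 (adjusted p = 0.0992) and 0.03 ± 0.29 (adjusted p = 0.945). Under total counts the change in A130071D04Rik was -0.39.

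In irradiated mice given 200 mg/kg, Gm42870 ranged from 0.716 to 1.55 (median 1.29) CPM, overlapping irradiated vehicle mice. Gm43197 ranged from 11.9 to 50.7 (median 25.9) CPM and A130071D04Rik from 11.0 to 49.8 (median 23.8). Both were thus higher in every irradiated mouse given 200 mg/kg than in every unirradiated mouse of Day 1 given that dose. The log2 fold changes were 3.48 ± 0.66 for Gm43197 (adjusted p = 0.0019) and 3.38 ± 0.59 for A130071D04Rik (adjusted p = 0.0011), from mice that had entered the choice of both. Gm42870 had -1.15 ± 0.46 (adjusted p = 0.0759).

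Markers of T cells and neutrophils moved as well. The sum of 8 T cell markers ranged from 354 to 449 CPM in vehicle mice on Day 1, and was 76.5 to 163 with 100 mg/kg, 46.9 to 197 with 200 mg/kg and 26.2 to 109.5 in irradiated vehicle mice. The sum of 8 neutrophil markers was 352 to 643 CPM in vehicle mice and 1049.7 to 6124 in irradiated ones. Neutrophil sums at 100 and 200 mg/kg are not given. These sums, too, use TMM scaling and are not given under total counts. The T cell sums of irradiated vehicle mice lay below those of every unirradiated vehicle mouse of Day 1. Values of Gm43197 and A130071D04Rik overlapped between these groups. The part of these cells in the 2 genes was not tested.

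Gm43388 and most of the Igl segments near Gm42870 fell after irradiation, and Iglv2 was not called. Gm43388, on the opposite strand, fell by 4.84 (SE 0.33, adjusted p = 1.65e-06) on the log2 scale after irradiation of vehicle mice. Iglv3 fell by 3.99 (SE 0.25, adjusted p = 9.83e-07) and Iglc2 by 2.79 (SE 0.27, adjusted p = 1.15e-05). Iglv2, at 0.401 to 4.56 CPM against 2.36 to 5.14 in unirradiated vehicle mice, had -0.55 ± 0.43 (adjusted p = 0.2963), with overlapping ranges. Under total counts Iglc1 (-2.97), Iglc3 (-4.09), Iglv1 (-2.77) and Iglc4 (-3.64) were also called lower after irradiation of vehicle mice. The Igl genes are immunoglobulin light chain genes, which B cells and plasma cells express. The part of B cells in the change was not tested.

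At 100 and 200 mg/kg on Day 1, Gm42870 was lower relative to Iglc2 as well. The log2 ratio of the 2 (0.1 CPM added to each) ranged from -1.24 to -0.79 (median -1.02) in vehicle mice, from -4.93 to -3.53 (median -4.26) at 100 mg/kg and from -4.97 to -3.19 (median -3.68) at 200 mg/kg. In irradiated vehicle mice it ranged from -3.51 to -2.30 (median -2.73). All 3 groups lay below vehicle mice, and the irradiated group overlapped 200 mg/kg but not 100 mg/kg.

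Each TEC gene was also read against the gene whose intron it lies in or opposite. The log2 ratio of A130071D04Rik to Ptprc (0.1 CPM added to each) ranged from -4.76 to -4.10 (median -4.35) in vehicle mice on Day 1, from -8.21 to -5.96 (median -6.72) at 100 mg/kg and from -8.07 to -5.40 (median -7.02) at 200 mg/kg. In irradiated vehicle mice it ranged from -4.89 to -4.43 (median -4.54), overlapping unirradiated ones. Ptprc itself fell by 1.67 (SE 0.20, adjusted p = 6.05e-06) at 100 mg/kg and by 1.5 (SE 0.22, adjusted p = 3.67e-05) at 200 mg/kg, so the intronic gene was the lower of the 2 relative to vehicle mice in every treated mouse.

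The log2 ratio of Gm43197 to Gm20559 ranged from -1.36 to -0.96 (median -1.08) in vehicle mice on Day 1, from -3.32 to -2.56 (median -2.76) at 100 mg/kg and from -3.38 to -1.43 (median -2.90) at 200 mg/kg. The log2 ratio of Gm42870 to Gm43388 ranged from 1.97 to 2.29 (median 2.04), -0.14 to 1.24 (median 0.87) and 0.23 to 1.58 (median 1.07) in these groups, and from 1.10 to 2.5 (median 1.99) in irradiated vehicle mice. All 3 ratios were thus lower in every mouse given 100 or 200 mg/kg than in any vehicle mouse of Day 1. After irradiation the ratio of Gm42870 to Gm43388 had a median close to that of vehicle mice. Gm43388 was at only 0.134 to 0.520 CPM in the irradiated vehicle mice, so the 0.1 CPM added to each gene lowers that ratio. Since the 3 genes were chosen for low values in these groups, the low ratios are a description with no test.

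**Figure D4:**
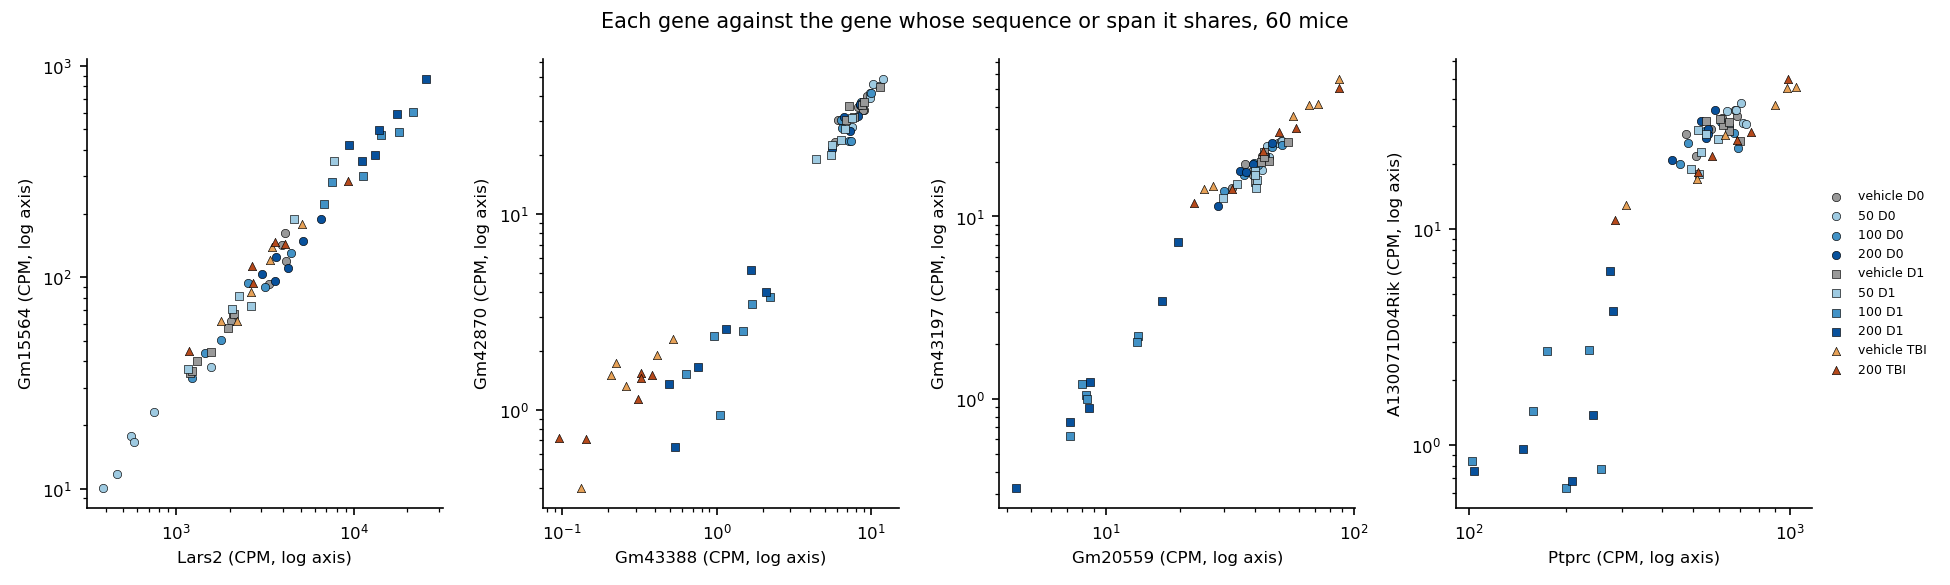
Each of 4 members against the gene whose sequence or span it shares, in 60 mice (CPM, both axes log). Circles are Day 0, squares unirradiated Day 1 and triangles irradiated mice. Gm15564 keeps a near-constant ratio to Lars2 over all groups (medians of the log2 ratio between -5.17 and -4.77), while the TEC genes at 100 and 200 mg/kg on Day 1 (dark squares) mostly lie below the line of the other groups.

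Gm15564 kept a near-constant ratio to Lars2, with which it shares sequence. The log2 ratio of Gm15564 to Lars2 had group medians from -5.17 (50 mg/kg, Day 0) to -4.77 (200 mg/kg with irradiation), and the ranges of all 10 groups lay between -5.37 and -4.45. Lars2 rose by 3.35 ± 0.32 (adjusted p = 4.87e-07) at 200 mg/kg on Day 1 and fell by 2.19 (SE 0.36, adjusted p = 0.0027) at 50 mg/kg on Day 0. Gm23935, whose 57 bases are those of Gm24245, stood far above it, at 1334 to 2677 CPM in vehicle mice on Day 1 against 1.5 to 2.12. Gm23935 fell by 2.03 (SE 0.38, adjusted p = 0.0043) at 50 mg/kg on Day 0 and rose by 3.17 ± 0.33 (adjusted p = 1.26e-06) at 200 mg/kg on Day 1. Under total counts the rises at that dose were 1.82 for Lars2 and 1.62 for Gm23935. The 2 genes that run opposite to Gm15564 depended on the scaling. Kpna1 rose by 1.47 ± 0.18 (adjusted p = 6.67e-06; -0.0439 and not called under total counts) at 200 mg/kg on Day 1 while Parp9 had -0.39 ± 0.17 (adjusted p = 0.0514; -1.89 and called under total counts).

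Over all 10 groups, each of the 4 short or antisense genes had its lowest median at 50 mg/kg on Day 0 and its 2 highest at 100 and 200 mg/kg on Day 1. In the order of medians, neighbouring groups overlapped with few exceptions. Gm25732 at 50 mg/kg on Day 0 lay wholly below the next group, vehicle on Day 1. For Gm24245 and Mir6236 the 2 highest groups lay wholly above the group next in order, though not above mouse 31 (50 mg/kg, Day 1) or mouse 56 (200 mg/kg with irradiation) for either gene. For the TEC genes the order had 1 break each. Gm42870 had 4 groups below the break, both irradiated groups and 100 and 200 mg/kg on Day 1, while Gm43197 and A130071D04Rik had only 100 and 200 mg/kg on Day 1 there.

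Likeness to other genes was measured as Pearson's r of log2(CPM + 1) over the 60 mice, among 13485 genes with a mean of at least 1 CPM. The mice share groups and scaling, so r is a description, and it is also given for deviations from the group means. The 5 nearest genes of Mir6236 were Gm15564 (r = 0.99, and 0.98 within groups), Lars2 (0.99 and 0.96), Gm25732 (0.98 and 0.97), Gm23935 (0.98 and 0.94) and Gm24187 (0.97 and 0.91). The 5 nearest of Gm25732 and of Gm15564 were each other, Mir6236, Lars2, Gm23935 and Gm24187, at r of 0.96 to 0.99. The nearest of Gm24245 were Lars2 (0.97 and 0.93), Gm25732 (0.96 and 0.88), Gm24187 (0.96 and 0.92), Gm25911 (0.96 and 0.90) and Gm42418 (0.96 and 0.91), a noncoding gene on chromosome 17.

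For Gm42870 the nearest were Gm15675 (0.99, and 0.74 within groups), BE692007 (0.99 and 0.79), Gm43388 (0.99 and 0.84), Gm15411 (0.99 and 0.74) and A630001G21Rik (0.98 and 0.85). Gm43197 was nearest to its host Gm20559 (0.99 and 0.96), then to Tcea2 (0.98 and 0.92), Cklf (0.98 and 0.92), Gm37558 (0.98 and 0.89) and Gm16091 (0.98 and 0.87). A130071D04Rik was nearest to Gm37558 (0.98 and 0.86), E030022I16Rik (0.98 and 0.79), Crybg2 (0.98 and 0.88), Cklf (0.97 and 0.88) and Gm43197 (0.97 and 0.92). Its host Ptprc stood at place 97, with r of 0.94 (0.73 within groups).

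With TMM scaling, other noncoding genes moved in both directions. Of 13 ribosomal RNA or ribosomal RNA-like genes listed, 4 matched the table by name and 3 were tested: Lars2, Gm42418 and Gm26917. At 200 mg/kg on Day 1 all 3 were called, with Lars2 and Gm42418 (2.61 ± 0.46, adjusted p = 1.99e-04) higher and Gm26917 (-2.83 ± 0.61, adjusted p = 9.96e-04) lower. At 50 mg/kg on Day 0 only Lars2 was called. Of the structural small RNAs, 4 of 18 tested were called at 50 mg/kg on Day 0, all lower, with the 7SL and Y RNAs Rny1 (-1.69, adjusted p = 0.0225), Rn7s2 (-1.49, adjusted p = 0.0133), Rny3 (-1.47, adjusted p = 0.0364) and Rn7s1 (-1.21, adjusted p = 0.0408). At 200 mg/kg on Day 1, 13 of 17 were called, 5 higher and 8 lower. Their median log2 fold change was -1.28 beside -0.48 over all genes, or -1.25 with the 1 gene that had a group at 0 set at its bound. At 100 mg/kg on Day 1, where 14 of 17 were called (5 higher and 9 lower), Rny1 (2.93, adjusted p = 1.25e-06) and Rn7s2 (2.38, adjusted p = 2.55e-06) were among the 4 with the largest changes, and both were higher. With total counts in place of TMM, 2 structural small RNAs were called for 50 mg/kg on Day 0 (1 higher and 1 lower), 14 for 100 mg/kg on Day 1 (2 higher and 12 lower) and 12 for 200 mg/kg on Day 1, all lower. With TMM, the largest changes at 200 mg/kg were in Rnu2-10 (-4.15, adjusted p = 6.52e-04), Rnu12 (-3.36, adjusted p = 1.5e-04) and Rnu73b (-2.91, adjusted p = 0.00243), with means under 0.6 CPM in vehicle mice, and Rnu3a, which had no reads at that dose.

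The 17 long noncoding RNAs listed included Malat1 and Neat1. None was called at 50 mg/kg on Day 0, against 4.50% of all genes. At 200 mg/kg on Day 1, 8 of 17 were called, a share close to the 47.8% of all genes. Of these 8, 1 was higher and 7 lower, and the median over the list was -0.96. With total counts 2 were called at 50 mg/kg on Day 0, both higher, and 13 at 200 mg/kg on Day 1, all lower. With TMM, the largest at 200 mg/kg were in Mir142hg (-2.99, adjusted p = 1.08e-05), Mir17hg (-2.54, adjusted p = 2.63e-05), Jpx (-1.73, adjusted p = 2.66e-05) and Snhg12 (-1.61, adjusted p = 0.00225). After irradiation of vehicle mice 9 were called with TMM, 3 higher and 6 lower, where 36.0% of all genes were called. With total counts 9 were called, all lower.

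Most of the other microRNA genes named Mir and a number that passed the test ran against Mir6236 on Day 1. At 200 mg/kg on Day 1, 213 of them could be tested and 140 were called, 18 higher and 122 lower, with a fitted median log2 fold change of -2.86 beside -0.48 over all genes. Of the 213, 92 had no read in 1 of the groups, and the median was -1.12 when these were set at their bound against a floor of 3 counts over the group. At 100 mg/kg on Day 1 it was 152 of 213, 16 higher and 136 lower, with a fitted median of -3.38, or -1.36 with 96 such genes at their bound. After irradiation of vehicle mice 64 of 278 were called, 27 higher and 37 lower, a smaller share than the 36.0% of all genes. On Day 1, 47.8% of all genes were called at 200 mg/kg and 48.8% at 100 mg/kg. A gene entered the test with at least 10 reads summed over 12 mice. With total counts in place of TMM, 168 of 213 were called at 200 mg/kg on Day 1, 2 higher and 166 lower, and 68 of 278 after irradiation, 18 higher and 50 lower. Genes of the microRNA biotype with Gm names are outside this set. Those sharing sequence with Gm24245 were called higher at 200 mg/kg on Day 1 under total counts. The changes were 1.62 for Gm23935, 1.43 for Gm24270, 1.51 for Gm24187 and 1.54 for Gm23388.

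The libraries held 15099415 to 45589415 counts on genes, with a median of 24877993.5. TMM factors had group medians from 0.538 (200 mg/kg, Day 1) to 1.90 (50 mg/kg, Day 0), so scaling moved values most in the groups described. Under total counts the median log2 fold change of all genes was 0.69 in place of 0.03 at 50 mg/kg on Day 0, -1.76 in place of -0.38 at 100 mg/kg on Day 1 and -1.96 in place of -0.48 at 200 mg/kg on Day 1. The share of called genes that were higher went from 2.8% to 89.3%, from 37.3% to 6.2% and from 36.2% to 4.4% in these comparisons. It went from 54.4% to 35.5% for irradiation of vehicle mice and from 72.3% to 97.6% for irradiation at 200 mg/kg. Under total counts Gm24245 had a log2 fold change of 2.55 for 100 mg/kg on Day 1 and the TEC genes -5.67 to -5.25. For 200 mg/kg these were 2.45 and -5.19 to -4.43. The direction of all 7 members at these doses was the same under both scalings.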

How the data were processed

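Whole-blood RNA was collected in PAXgene tubes. The study's methods describe stranded total RNA with ribosomal and globin RNA depleted, whereas the labels describe polyA selection. This bears on any gene of ribosomal RNA-like sequence and could not be settled here. Per the submitters' processing notes, reads were trimmed with Trimmomatic 0.36, aligned to GRCm38 with STAR 2.5.2b and counted per gene with Subread 1.5.2. The methods describe the counts as unique hits per gene. The strand setting and the annotation release of the counting are not given in the sources used here. The unit is the raw read count per gene as deposited by the authors, in 10 tables that repeat the 60 mice with the same values. The tables of the authors' comparisons (fold changes, p-values and normalised values) were not used.

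Each pair of groups (12 mice) was fitted by edgeR 4.0.16 (R 4.3.3) with TMM scaling, genes of at least 10 summed counts, the quasi-likelihood F test and Benjamini-Hochberg adjustment over all genes tested. The standard error is the absolute log2 fold change over the root of F. The fits were tested on simulated data in which few genes changed, in equal numbers up and down. That setting could not check the scaling in comparisons where a large share of genes was called. Alternatives were total counts, size factors of the DESeq2 kind, 2 other filters on low counts, DESeq2 1.42.0 and leaving out each mouse. Leaving out mice was run for 8 of the 11 comparisons. Members and gene lists were chosen with earlier results of these data known. The named genes are the 7 members, the 5 genes most correlated with each, and the 4 largest called changes in each list of noncoding RNA, given for the comparisons described. Neighbours and genes of shared sequence were taken from the annotation after the members' values were seen. Names came from the GENCODE M21 annotation, which held 48970 of the 49315 identifiers. The printed sequences are GENCODE transcripts on GRCm38. The sequence of Mir6236 and the summed B cell markers are not reported here, and sums of monocyte, adipocyte and hepatocyte markers were not used. The mice are separate animals, so p-values set group differences against spread between animals. Each group is a block of consecutive animal numbers, and mice shared cages that are not given per mouse. Treatment therefore cannot be told apart from cage or order of handling. Library totals ran from 15099415 to 45589415 counts.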

Additional observations from a re-analysis of the deposited data

Results flagged for a closer look

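In 7 of the 70 sets of 6 mice checked (7 genes in 10 groups), the mouse at one end lay farther from the nearest other mouse than Dixon's limit for 6 values allows. For independent, normally distributed values chance would give about 1 in 20 sets. The CPM values were not transformed and the sets share mice, so the count is a description. Gm24245 had 5 of them. At 50 mg/kg on Day 0, mouse 2 had 2.45 CPM and the others 0.393 to 0.979. At 200 mg/kg on Day 0, mouse 22 had 10.4 CPM and the others 3.18 to 5.71. At 50 mg/kg on Day 1, mouse 31 had 14.2 CPM and the others 1.86 to 6.14. Among irradiated vehicle mice, mouse 52 had 2.04 CPM and the others 5.93 to 7.16. Among irradiated mice given 200 mg/kg, mouse 56 had 23.9 CPM and the others 1.49 to 8.56.

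Gm25732 had 2 such mice. Mouse 31, at 50 mg/kg on Day 1, had 71.2 CPM and the others 8.79 to 30.0. Mouse 46, at 200 mg/kg on Day 1, had 210.3 CPM and the others 82.8 to 129.8.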

How the results depend on the processing

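The count of members called kept its value or stayed within 1.5 times it, except in 4 cases, and in 1 more when a mouse was left out. Total counts in place of TMM gave 2 at 50 mg/kg on Day 0 and 2 for TBI in vehicle mice. DESeq2 gave 3 at 50 mg/kg on Day 1 and 4 for Day 1 against Day 0. Leaving out 1 mouse at a time gave 0 to 3 at 50 mg/kg on Day 1 (3 without mouse 36) and 3 to 5 for TBI in vehicle mice (3 without mouse 50, 5 without mouse 49). The cause was not tested.

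Changes of sign occurred in values that passed no test. Total counts gave 0.021 for Gm42870 at 100 mg/kg on Day 0, -0.14 for Gm43197 at 200 mg/kg on Day 0, -0.39 for A130071D04Rik after TBI in vehicle mice, -0.0456 for Gm25732 at 200 mg/kg with TBI, -0.14 for Gm15564 and -0.0862 for A130071D04Rik for TBI against Day 0, and 0.31 for A130071D04Rik for Day 1 against Day 0. Without the filter on low counts, Gm15564 had -0.0288 for TBI against Day 0 and A130071D04Rik 0.0053 for Day 1 against Day 0. Leaving out 1 mouse at a time gave -0.0462 to 0.168 for Gm43197 and -0.132 to 0.0164 for A130071D04Rik at 200 mg/kg on Day 0, and -0.12 to 0.21 for A130071D04Rik after TBI in vehicle mice. For 200 mg/kg with TBI it gave -0.39 to 0.58 for Gm24245, -0.32 to 0.28 for Gm25732, -0.0517 to 0.51 for Gm15564 and -0.0289 to 0.477 for Mir6236.

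Over all genes, total counts gave 2870 calls in place of 1103 at 50 mg/kg on Day 0 and 9323 in place of 4873 for TBI at 200 mg/kg. Where edgeR called no gene, DESeq2 called 2 genes on Day 0 at 100 mg/kg, 2 at 200 mg/kg, 68 at 50 mg/kg on Day 1, 37 for Day 1 against Day 0 and 0 for 200 mg/kg with TBI. No paired analysis was possible because animal numbers are unique to each mouse. Depth limits Gm24245, with 20 to 768 reads per mouse, more than the other short genes. Low counts also limit the TEC genes at 100 and 200 mg/kg on Day 1. Mouse 47 (200 mg/kg) had 3 reads for Gm43197, 6 for Gm42870 and 7 for A130071D04Rik.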
